A study of Homo sapiens with 20 samples.

Results

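The genes described are targets and core members of the YAP and TEAD branch of the Hippo pathway in 2 rhabdomyosarcoma cell lines. They were listed by symbol as ANKRD1, CCN1, CCN2, THBS1, AMOTL2, AJUBA, LATS2, AXL, YAP1 and TEAD1. A named probe set was matched for 9 of the 10, each with 1 probe set, of 17687 genes tested in the whole series, and AMOTL2 was not analysed here. All 9 lay above the 95th percentile of the 612 negative-control probe sets on 20 of 20 arrays. YAP1 and TEAD1 are the regulators among them, and the other 7 are called the measured targets below.

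The Hippo pathway is a kinase cascade that senses cell contact, tension and polarity. Its kinases phosphorylate the coactivator YAP and its relative TAZ and hold them in the cytoplasm, and when the cascade is off both enter the nucleus and bind TEAD factors at DNA to switch on genes of growth, adhesion and matrix. YAP is known to promote proliferation of muscle precursor cells, and TEAD factors also bind the regulatory regions of muscle genes. Some targets feed back on the pathway: LATS2 is one of the kinases that phosphorylate YAP, and AJUBA is a scaffold that restrains LATS kinases.

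The study measured RNA from cells in which KDM4 enzymes, which demethylate lysines of histone H3, were inhibited or depleted. Rh41 and Rh30 cells were each treated for 48 h with QC6352, an inhibitor of KDM4 enzymes, at 200 nM or with its vehicle DMSO (3 arrays per group). Rh30 cells carried a short hairpin against KDM4B (shKDM4B) or a control hairpin (shControl) for 72 h (2 arrays each), or received small interfering RNA (siRNA) against KDM4C (siKDM4C) or a control siRNA (siControl) for 72 h (2 each). Both lines are established alveolar rhabdomyosarcoma lines that carry the PAX3-FOXO1 fusion gene, and all groups of a line share its genotype. No group restores KDM4B or KDM4C, so effects through the target and other effects of a hairpin or siRNA cannot be told apart.

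Array medians were 6.72 to 6.75 log2 on the 4 arrays of the siRNA groups, 6.95 to 6.99 on the other Rh30 arrays and 7.22 to 7.25 on the Rh41 arrays. On 10 Rh30 arrays, all of the siRNA, DMSO and QC6352 groups, the title gives one group and the submitted sample name another. The sets of KDM4B hairpin and of Rh41 have no such conflict. Groups follow the titles here, with 1 exception. The title of siKDM4C replicate 2 names KDM4C but reads shRNA, and this array was placed by its source name, which reads siKDM4C. By title the median residual standard deviation (SD) of the 9 genes was 0.122 log2, and by sample name it was 0.179 log2. KDM4B had 6.01 and 6.15 log2 in shKDM4B cells, against 6.74 and 7.30 in shControl cells (adjusted p = 0.0120). KDM4D averaged 5.44 log2 in shKDM4B cells, with 2 of 2 arrays above the negative-control level. In shControl cells it averaged 4.49 log2, with 0 of 2 arrays above that level. KDM4C had 6.25 and 6.32 log2 in siKDM4C cells, against 6.48 and 6.54 in siControl cells, which was not past the threshold (adjusted p = 0.651). The 6 muscle-lineage markers (MYOD1, MYOG, DES, CDH15, MYMK and CHRNA1) were above the negative-control level on every array. Markers of other cell types were mixed. Fibroblast COL1A1, COL1A2 and PDGFRB, epithelial KRT8, KRT19 and KRT5, endothelial CDH5, VWF and CLDN5 and the blood marker CD14 were above that level on 20 of 20 arrays, and DCN and PECAM1 on 15. LUM, POSTN, EPCAM, CDH1, KDR, TEK, PTPRC, CD3E and LYZ were below it on every array, while KRT18 was above it on 3 and HBB on 12.

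The DNA upstream of 3 of these genes is shown because CCN2 and ANKRD1 had the largest rise under QC6352 in Rh30 and in Rh41, and THBS1 had fewer motif copies. RefSeq promoter windows (GRCh38.p14, 250 bases before to 50 bases after a gene start) were found for 8 of the 10 listed genes, with no entry for CCN1 and TEAD1. The 250 bases before the start are printed 5′ to 3′ on the gene's own strand, with the letters of the TEAD motif GGAATG in capitals. The windows are CCN2 on the minus strand (chr6:131951373-131951622), ANKRD1 on the minus strand (chr10:90921088-90921337) and THBS1 on the plus strand (chr15:39580829-39581078).
CCN2: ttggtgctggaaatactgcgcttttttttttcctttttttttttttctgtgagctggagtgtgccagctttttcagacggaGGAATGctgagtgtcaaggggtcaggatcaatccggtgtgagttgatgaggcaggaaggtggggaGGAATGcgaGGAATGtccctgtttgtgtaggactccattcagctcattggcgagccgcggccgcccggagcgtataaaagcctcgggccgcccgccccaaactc
ANKRD1: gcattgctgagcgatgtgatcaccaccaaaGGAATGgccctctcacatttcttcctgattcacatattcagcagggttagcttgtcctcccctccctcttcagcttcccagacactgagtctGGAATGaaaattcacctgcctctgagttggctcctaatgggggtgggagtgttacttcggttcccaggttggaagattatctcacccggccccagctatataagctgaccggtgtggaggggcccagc
THBS1: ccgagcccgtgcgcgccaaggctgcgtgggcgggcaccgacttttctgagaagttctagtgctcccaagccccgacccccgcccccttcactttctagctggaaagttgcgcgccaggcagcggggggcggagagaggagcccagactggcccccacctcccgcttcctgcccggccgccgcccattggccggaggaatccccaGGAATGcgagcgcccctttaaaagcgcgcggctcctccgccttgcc
CCN2 held 3 copies, which began 169, 104 and 95 bases before the start. ANKRD1 held 2 copies, 220 and 128 bases before it, with 1 AP-1 motif (TGANTCA) between them at 195 bases. THBS1 held 1 copy, 46 bases before its start, and AMOTL2, YAP1, LATS2, AJUBA and AXL also held 1 each. Copy number was not tested against response. Searched on both strands, each of the 8 genes held the TEAD motif in at least 1 window, in 8 windows of the 11 that these genes have. Among all 35116 RefSeq windows of this length 14.0% held at least 1 copy, 1.37% at least 2 and 0.128% at least 3. The AP-1 motif was in 7.71% of all windows and the CArG box, the motif of serum response factor, in 1.29%, and no listed gene's window held a CArG box. A match describes letters in a window and says nothing of binding. The genes were listed as targets and core members of this pathway, so their share of windows with the motif is no independent result.

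The first drug comparison asks how these genes change under QC6352 in Rh41. All 7 measured targets rose in Rh41 cells under QC6352, and neither regulator passed the test. ANKRD1, a nuclear ankyrin-repeat cofactor of stressed muscle, rose 8.36-fold. AXL and THBS1 rose 2.77-fold and 2.75-fold, CCN1 2.26-fold, CCN2 1.82-fold, LATS2 1.40-fold and AJUBA 1.27-fold. The 7 rises of 9 genes stand against 10.9% of all genes tested that rose here (limma, Benjamini-Hochberg adjusted p under 0.05 over 17687 genes), and 0 of 9 fell against 8.80%, so that 19.7% of all genes changed in either direction.

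ANKRD1 had 9.15, 9.30 and 8.94 log2 in Rh41 cells under QC6352, against 6.22, 6.03 and 5.95 in Rh41 cells in DMSO. Every treated array was above every vehicle array, with a change of 3.06 ± 0.13 log2 (SE, adjusted p = 2.06e-11, n = 3 and 3). AXL, a receptor tyrosine kinase of the TAM family, had 9.72, 9.94 and 9.77 log2 under QC6352, against 8.44, 8.23 and 8.35 in DMSO. Its groups also lay apart, with a change of 1.47 ± 0.11 log2 (adjusted p = 2.13e-08). THBS1, the matrix glycoprotein thrombospondin-1, had 9.64, 9.87 and 9.60 log2 under QC6352, against 8.32, 8.07 and 8.35 in DMSO. The change of 1.46 ± 0.11 log2 (adjusted p = 1.74e-08) was close to that of AXL.

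The CCN genes encode secreted matrix-associated proteins and are among the most used reporters of YAP activity. CCN1 had 9.14, 9.36 and 9.37 log2 in Rh41 cells under QC6352, against 8.18, 8.06 and 8.08 in DMSO, a change of 1.18 ± 0.08 log2 (adjusted p = 1.41e-08). CCN2 had 8.75, 8.92 and 8.74 log2 under QC6352, against 7.99, 8.16 and 7.65 in DMSO, a change of 0.87 ± 0.14 log2 (adjusted p = 0.000145). In both genes the lowest treated array was above the highest vehicle array.

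The feedback genes moved less. LATS2 had 9.31, 9.44 and 9.43 log2 in Rh41 cells under QC6352, against 8.95, 8.84 and 8.93 in DMSO (change 0.48 ± 0.11 log2, adjusted p = 0.00323). AJUBA had 10.40, 10.41 and 10.44 log2 under QC6352, against 10.003, 10.20 and 10.02 in DMSO (change 0.35 ± 0.09 log2, adjusted p = 0.00826). The groups did not overlap in either gene.

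The regulators themselves moved little in Rh41. YAP1 had 9.46, 9.41 and 9.47 log2 under QC6352, against 9.53, 9.48 and 9.49 in DMSO, a change of -0.05 ± 0.10 log2 (adjusted p = 0.821, 95% interval -0.27 to 0.17). TEAD1 had 9.24, 9.32 and 9.23 log2 under QC6352, against 9.20, 9.22 and 9.17 in DMSO, a change of 0.07 ± 0.11 log2 (adjusted p = 0.761, 95% interval -0.17 to 0.31). The median change of the 9 genes was 0.87 log2, beside 0.02 over all genes tested. Arrays of the drug and vehicle groups did not overlap for 9 of 9 genes, against 41.1% of all genes. In total RNA of a whole culture, fewer cells of a type and less RNA per cell cannot be told apart.

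The counts in Rh41 were also 7 of 9 with any 1 of its 6 arrays left out, and were 7 of 9 in a fit of the 10 arrays without conflicting labels, an alternative added after the data were seen. With Rh30 arrays grouped by sample name, which alters the spread shared by all groups, 5 of 9 passed and CCN2 (adjusted p = 0.0619) and AJUBA (adjusted p = 0.186) did not. The muscle-lineage markers summed to 14014 to 15042 in linear signal in Rh41 cells under QC6352, against 13124 to 13892 in DMSO. Of these 6 markers 0 rose and 1 fell past the threshold, and 4 had a positive change. The 6 measured fibroblast markers, of which 4 were above the negative-control level on each of these arrays, summed to 1088 to 1179 under QC6352, against 1039 to 1121 in DMSO. Their part in the result was not tested.

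**Figure D1:**
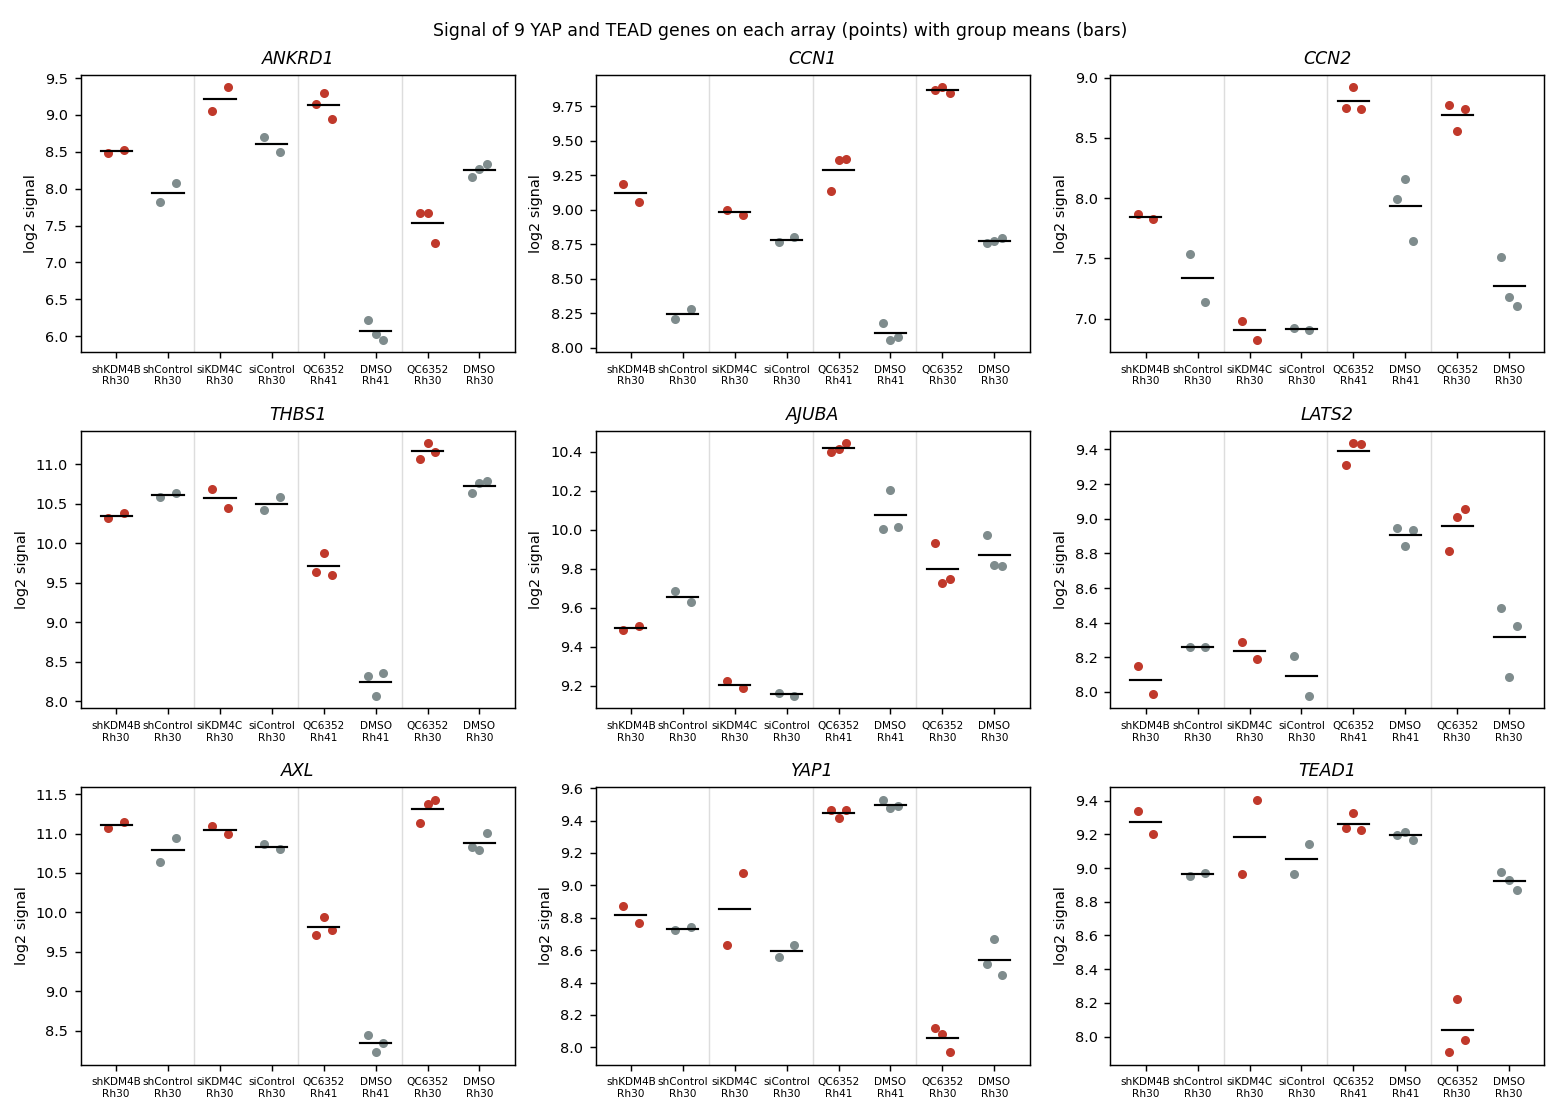
Log2 signal of the 9 genes on each array (points, red for treated and grey for control) with the group mean (line), by group along the horizontal axis, each panel on its own vertical scale. In Rh41 the QC6352 arrays stand above the DMSO arrays for all 7 measured targets, whereas in Rh30 ANKRD1, YAP1 and TEAD1 stand below DMSO.

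In Rh30 the same dose moved the targets in both directions and both regulators down. CCN2 rose 2.68-fold, CCN1 2.13-fold and LATS2 1.56-fold, with smaller rises of THBS1 and AXL. ANKRD1 fell, 1.65-fold lower under QC6352, TEAD1 1.85-fold and YAP1 1.40-fold lower, while AJUBA did not pass the test. Rises were 5 of 9, against 19.9% of all genes, and falls 3 of 9, against 16.5% (36.3% in either direction). These results rest on the titles. With the arrays grouped by sample name 0 of 9 passed with limma (1 at an unadjusted p under 0.05), and changes ran from -0.15 to 0.48 log2.

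CCN2 had 8.77, 8.55 and 8.74 log2 in Rh30 cells under QC6352, against 7.51, 7.18 and 7.11 in Rh30 cells in DMSO. The lowest treated array was well above the highest vehicle array, and the change was 1.42 ± 0.14 log2 (adjusted p = 1.13e-07, n = 3 and 3). CCN1 had 9.87, 9.89 and 9.84 log2 under QC6352, against 8.76, 8.78 and 8.80 in DMSO. Both groups of CCN1 were tight, and the change was 1.09 ± 0.08 log2 (adjusted p = 7.29e-09). LATS2 had 8.81, 9.01 and 9.06 log2 under QC6352, against 8.48, 8.09 and 8.38 in DMSO, a change of 0.64 ± 0.11 log2 (adjusted p = 8.99e-05).

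THBS1 and AXL rose by less. Both had higher levels in DMSO in this line than in Rh41, and the part of that in the rise was not tested. THBS1 had 11.07, 11.26 and 11.16 log2 in Rh30 cells under QC6352, against 10.64, 10.77 and 10.78 in DMSO, a change of 0.43 ± 0.11 log2 (adjusted p = 0.00311). AXL had 11.13, 11.37 and 11.43 log2 under QC6352, against 10.83, 10.79 and 11.01 in DMSO, a change of 0.44 ± 0.11 log2 (adjusted p = 0.00359). In each gene the lowest treated array was still above the highest vehicle array. AJUBA had 9.93, 9.73 and 9.75 log2 under QC6352, against 9.97, 9.82 and 9.81 in DMSO, with overlapping groups (change -0.07 ± 0.09 log2, adjusted p = 0.610).

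ANKRD1 was the one measured target that fell. It had 7.66, 7.67 and 7.26 log2 in Rh30 cells under QC6352, against 8.15, 8.27 and 8.34 in DMSO, a change of -0.72 ± 0.13 log2 (adjusted p = 0.000236). YAP1 had 8.12, 8.08 and 7.97 log2 under QC6352, against 8.51, 8.67 and 8.45 in DMSO, a change of -0.48 ± 0.10 log2 (adjusted p = 0.000857). TEAD1 had 7.91, 8.22 and 7.98 log2 under QC6352, against 8.98, 8.93 and 8.87 in DMSO, a change of -0.89 ± 0.11 log2 (adjusted p = 2.86e-06). In all 3 genes every treated array was below every vehicle array. The median change of the 9 genes was 0.43 log2, beside 0.05 over all genes tested, and groups did not overlap for 8 of 9 genes, against 44.5% of all genes.

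Markers of cell identity moved alongside in Rh30. The 6 muscle-lineage markers summed to 8730 to 8907 in linear signal in Rh30 cells under QC6352, against 13816 to 13981 in DMSO, and 3 of the 6 fell. MYOG, the gene of myogenin, had 9.06, 9.34 and 9.03 log2 under QC6352, against 11.72, 11.76 and 11.82 in DMSO. The 6 fibroblast markers summed to 663 to 778 under QC6352, against 564 to 607 in DMSO, with 3 or 4 above the negative-control level, and the 6 epithelial markers to 594 to 673 under QC6352, against 495 to 537 in DMSO. COL1A1 rose by 0.40 ± 0.12 log2 (adjusted p = 0.0155) and KRT8 by 0.46 ± 0.11 log2 (adjusted p = 0.00297), the only 1 of 6 to pass in each list. COL1A2, PDGFRB, KRT19 and KRT5 were above the negative-control level on every array and did not pass. LUM, POSTN, EPCAM and CDH1 were below that level in both groups. Of the 6 endothelial markers 0 rose and 1 fell, PECAM1, with 7.58 log2 in DMSO and 6.54 under QC6352. Of the 5 blood markers 1 rose and 0 fell. The part of these shifts in the result was not tested.

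The responses of the lines were compared directly as the QC6352 change in Rh41 minus that in Rh30, which uses the same arrays as both comparisons above. ANKRD1 changed by 3.06 log2 in Rh41 and by -0.72 log2 in Rh30, a difference of 3.78 ± 0.19 log2 (adjusted p = 3.31e-10). The difference was 1.03 ± 0.15 log2 for THBS1 (adjusted p = 7.76e-05) and 1.03 ± 0.15 log2 for AXL (adjusted p = 9.29e-05), both of which rose in each line. TEAD1 differed by 0.96 ± 0.16 log2 (adjusted p = 0.000212). The 6 positive differences of 9 genes stand against 10.5% of all genes, and 0 of 9 were negative against 9.45%. By sample name 4 of 9 passed, ANKRD1 (3.22), AXL, THBS1 and CCN1.

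YAP1 differed by 0.43 ± 0.14 log2 (adjusted p = 0.0416) and AJUBA by 0.41 ± 0.12 log2 (adjusted p = 0.0239), and both calls were fragile. For YAP1 the call was lost without any 1 of 10 of the 12 arrays (adjusted p up to 0.111), and for AJUBA without any 1 of 6 (adjusted p up to 0.0663). CCN1 responded by 1.18 log2 in Rh41 and 1.09 log2 in Rh30, and the 95% interval of the difference ran from -0.16 to 0.34 log2. For LATS2 that interval ran from -0.48 to 0.16 log2. CCN2 had a difference of -0.55 ± 0.19 log2 (adjusted p = 0.0512, 95% interval -0.96 to -0.15). It passed the threshold without DMSO replicate 1 of Rh30 (adjusted p = 0.0203), without QC6352 replicate 2 of Rh30 (0.0405) and without DMSO replicate 3 of Rh41 (0.0142).

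**Figure D2:**
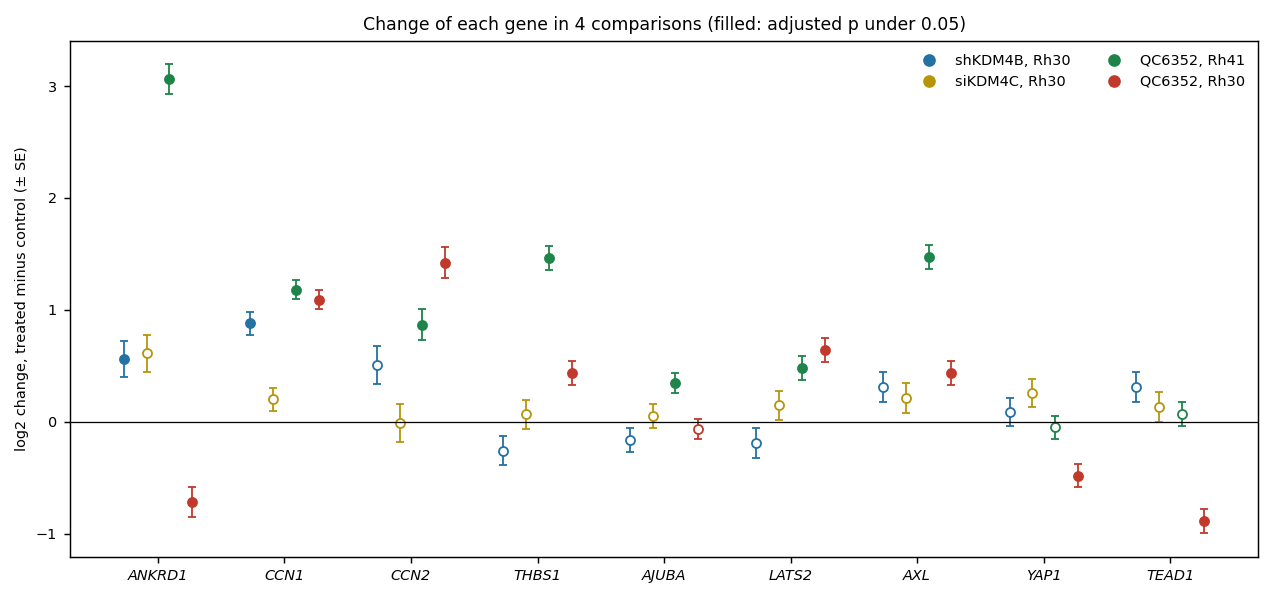
Log2 change of the 9 genes (points, with SE as bars) in each of the 4 treatment comparisons, treated minus control, filled where the adjusted p is under 0.05. ANKRD1 lies at 3.06 for QC6352 in Rh41 and at -0.72 in Rh30, while CCN1 and CCN2 lie above 0 in both lines.

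The vehicle groups gave the starting levels of the lines. In DMSO, Rh41 had less AXL (5.79-fold lower), THBS1 (5.60-fold lower), ANKRD1 (4.54-fold lower) and CCN1 (1.59-fold lower) than Rh30, and more YAP1 (1.94-fold), CCN2 (1.59-fold) and LATS2 (1.51-fold). The log2 changes were -2.53 ± 0.11 for AXL (adjusted p = 4.79e-13), -2.49 ± 0.11 for THBS1 (adjusted p = 4.36e-13) and -2.18 ± 0.13 for ANKRD1 (adjusted p = 7.63e-11). For CCN1 the change was -0.67 ± 0.08 log2 (adjusted p = 1.68e-06), and for YAP1 it was 0.96 ± 0.10 log2 (adjusted p = 1.94e-07). The median of all genes was itself 0.19 log2 higher in Rh41, so that AJUBA (0.21 ± 0.09, adjusted p = 0.0528) and TEAD1 (0.27 ± 0.11, adjusted p = 0.0439) lay close to it. The sign of AJUBA turned with quantile normalization (-0.06) and with arrays centred on their median (-0.05), and that of TEAD1 with quantile normalization (-0.02). TEAD1 lost its call without any 1 of the 6 arrays (adjusted p 0.0559 to 0.119).

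Of the 9 genes 4 were higher in Rh41, against 40.7% of all genes, and 4 lower, against 16.8% (57.6% in either direction). Groups did not overlap for 9 of 9 genes, against 65.2% of all genes. With quantile normalization 4750 genes were higher and 4919 lower, against 7202 and 2978 as deposited, and 4617 and 5451 with arrays centred on their median. The vehicle arrays here are the ones that serve as control in both drug comparisons. Under QC6352 ANKRD1 had 9.13 ± 0.18 log2 in Rh41 and 7.53 ± 0.23 log2 in Rh30 (SD, n = 3 each), whereas THBS1 had 9.70 ± 0.15 log2 in Rh41 and 11.16 ± 0.10 log2 in Rh30.

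The hairpin comparison asks which of these genes change with less KDM4B in Rh30. CCN1 rose 1.84-fold and ANKRD1 1.47-fold in shKDM4B cells, and no other gene of the 9 passed the test. The 2 rises of 9 stand against 5.26% of all genes that rose, and 0 of 9 fell against 6.31% (11.6% in either direction). CCN1 had 9.19 and 9.06 log2 in shKDM4B cells, against 8.21 and 8.28 in shControl cells, a change of 0.88 ± 0.10 log2 (adjusted p = 1.60e-05, n = 2 and 2). ANKRD1 had 8.49 and 8.53 log2 in shKDM4B cells, against 7.82 and 8.08 in shControl cells, a change of 0.56 ± 0.16 log2 (adjusted p = 0.0304). Under QC6352 in the same line its change was -0.72 log2, in the other direction.

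The call of ANKRD1 was lost without shControl replicate 1, shKDM4B replicate 1 or shKDM4B replicate 2, each of which leaves 1 array in a group. With any 1 array left out the change ran from 0.43 to 0.69 log2. The call was also lost in a fit of the compared arrays alone (limma adjusted p = 0.0762) and by sample name (0.451). Grouping by sample name leaves the hairpin arrays in place and alters only the spread shared by all groups. The call held in a fit of the 10 arrays without conflicting labels, an alternative added after the data were seen. CCN2 had 7.87 and 7.83 log2 in shKDM4B cells, against 7.54 and 7.14 in shControl cells (change 0.51 ± 0.17 log2, adjusted p = 0.0583). Without shControl replicate 1 it passed (adjusted p = 0.0366). AXL had 11.07 and 11.14 log2 against 10.64 and 10.95 in shControl cells, and TEAD1 9.34 and 9.20 against 8.95 and 8.97, both with a change of 0.31 ± 0.13 log2 (adjusted p = 0.159 and 0.169). THBS1 (-0.26), LATS2 (-0.19), AJUBA (-0.16) and YAP1 (0.09) had smaller log2 changes, with adjusted p of 0.246 to 0.770. Groups of 2 and 2 arrays did not overlap for 9 of 9 genes, but this was so for 51.7% of all genes. The muscle-lineage markers summed to 10643 to 11067 in shKDM4B cells, against 13100 to 13746 in shControl cells, and their part in the result was not tested.

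For the KDM4C siRNA 0 of 9 genes passed with limma, against 0.458% of all genes, and 1 had an unadjusted p under 0.05. That gene was ANKRD1, with 9.05 and 9.38 log2 in siKDM4C cells, against 8.70 and 8.50 in siControl cells (change 0.61 ± 0.16 log2, adjusted p = 0.0933). Without siKDM4C replicate 1 it passed (adjusted p = 0.0180), as did YAP1 (adjusted p = 0.0175). YAP1 had 8.63 and 9.07 log2 in siKDM4C cells, against 8.56 and 8.63 in siControl cells, so that replicate 2 alone stood high. Both passes rest on replicate 2 as the only siKDM4C array, the array whose title reads shRNA. Without it the change of YAP1 was 0.04 log2 (adjusted p = 0.980) and that of ANKRD1 0.45 log2 (adjusted p = 0.580). CCN1 had 9.002 and 8.96 log2 in siKDM4C cells, against 8.77 and 8.80 in siControl cells (change 0.20 ± 0.10 log2, adjusted p = 0.417). The log2 changes of the other 6 genes lay between -0.01 and 0.22, with adjusted p of 0.517 to 0.991. Groups did not overlap for 5 of 9 genes, against 38.5% of all genes. KDM4C itself did not pass in this comparison, and the labels of these arrays conflict.

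Across the 8 groups, each gene had its own order of levels. The levels were compared as deposited, without rescaling. Array medians were 6.72 to 6.75 log2 in the siRNA groups, 6.95 to 6.99 in other Rh30 groups and 7.22 to 7.25 in Rh41. The part of this offset in the orders was not tested. ANKRD1 was highest in siKDM4C cells (9.21 log2) and in Rh41 cells under QC6352 (9.13), groups that overlapped, and lowest in Rh41 cells in DMSO (6.07). CCN1 was highest in Rh30 cells under QC6352 (9.87), then in Rh41 cells under QC6352 (9.29) and shKDM4B cells (9.12), which overlapped. It was lowest in shControl cells (8.24) and Rh41 cells in DMSO (8.11). CCN2 was highest in both QC6352 groups (8.80 in Rh41 and 8.69 in Rh30), which overlapped, and lowest in the siRNA groups (6.92 in siControl cells and 6.90 in siKDM4C cells).

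THBS1 and AXL split by line, with every Rh30 group above both Rh41 groups. Neighbouring AXL groups within Rh30 all overlapped, from 11.31 log2 under QC6352 to 10.79 in shControl cells. The control groups of Rh30 were not interchangeable, since CCN1 had 8.21 and 8.28 log2 in shControl cells but 8.76 to 8.80 in Rh30 cells in DMSO. Hairpin and vehicle arrays differ in time and in treatment, so these cannot be told apart. YAP1 was highest in Rh41 (9.50 in DMSO and 9.45 under QC6352) and lowest in Rh30 under QC6352 (8.06), the group where TEAD1 was also lowest (8.04). LATS2 levels in the 5 lowest groups, all of Rh30, ran from 8.32 to 8.07 and overlapped their neighbours. AJUBA was highest in Rh41 cells under QC6352 (10.42) and lowest in the siRNA groups (9.21 in siKDM4C cells and 9.16 in siControl cells). Its groups thus ran in the order of the array medians, with both Rh41 groups first and the siRNA groups last.

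Likeness of pattern was taken as the root mean square difference of the 8 group means, each gene centred on its own mean, over 17687 genes. The means were as deposited, so the offset in array medians between groups enters every profile. THBS1 and AXL were close to each other (0.218 log2): AXL was the second nearest gene to THBS1, after KRT80 (0.210) and before SAMHD1 (0.222). THBS1 was the nearest gene to AXL, before TTC9 (0.235) and RAB15 (0.248). The nearest genes to CCN1 were PLK2 (0.191), SDC4 (0.221) and BBS7 (0.221), and those to CCN2 were ZFP2 (0.166), PCGF6 (0.191) and PLPPR2 (0.192). ANKRD1 had no close partner, with SAMD9 (0.427), RAB30 (0.473) and NUAK1 (0.521) nearest. Genes with smaller spans had nearer partners, among them NR2C1 for LATS2 (0.0505), FPR1 for AJUBA (0.0761), AASDHPPT for YAP1 (0.0825) and PICALM for TEAD1 (0.0958).

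The rest of the pathway was read from lists of Hippo kinases and scaffolds (20 of 22 measured), of coactivators, TEADs and TEAD cofactors (8 of 8) and of further YAP targets (13 of 15). Counts past the threshold are set beside the shares of all genes, 10.9% higher and 8.80% lower in Rh41 and 19.9% and 16.5% in Rh30 under QC6352. In Rh41 5 of the 20 kinases and scaffolds rose and 2 fell (median 0.16 log2, beside 0.02 over all genes). SAV1, the scaffold of the MST kinases, rose by 0.67 ± 0.13 log2 (9.18 against 8.51 in DMSO), and STK4, which encodes MST1, by 0.55 ± 0.17. FRMD6 rose by 0.50 ± 0.09 log2, and the upstream kinase MAP4K4 fell by 0.46 log2 (SE 0.11). Of the cofactors VGLL2, a muscle partner of TEADs, fell by 0.63 log2 (SE 0.10) and TEAD3 rose by 0.30 ± 0.10. WWTR1, the gene of TAZ, had a change of 0.11 ± 0.11 log2 (adjusted p = 0.576).

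In Rh30 under QC6352 4 of the 20 kinases and scaffolds rose, near the 19.9% of all genes, and 6 fell, against 16.5% (median -0.07 log2, beside 0.05 over all genes). TAOK3 is counted among the 6 but was below the negative-control level on every array of both groups. STK3, which encodes the Hippo kinase MST2, averaged 6.64 log2 under QC6352 and 9.11 in DMSO, a change of -2.47 ± 0.20 log2 (adjusted p = 1.32e-08). WWC2 fell by 0.87 log2 (SE 0.09) and MAP4K4 by 0.87 log2 (SE 0.11), and MOB1A, a coactivator of LATS kinases, rose by 0.70 ± 0.08. Of the 8 coactivators and cofactors 3 fell and 1 rose (median -0.31 log2). VGLL2 fell by 1.04 log2 (SE 0.10), VGLL3 by 0.47 log2 (SE 0.09) and WWTR1 by 0.46 log2 (SE 0.11), while TEAD3 rose by 0.40 ± 0.10.

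**Figure D3:**
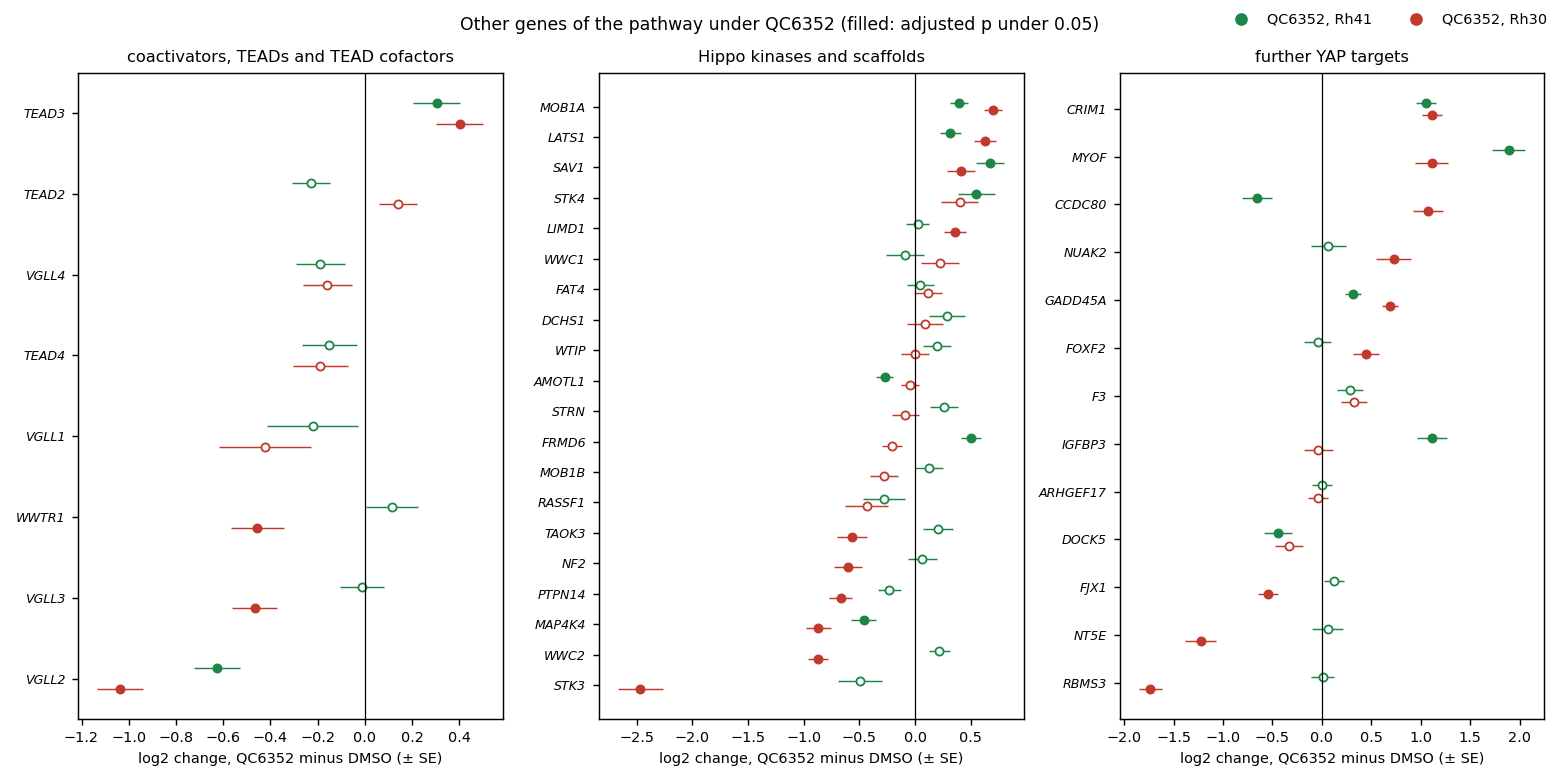
Log2 change under QC6352 (points, with SE as bars) for the other genes of the pathway in Rh41 (green) and Rh30 (red), one panel per list, filled where the adjusted p is under 0.05. STK3 stands farthest out among kinases and scaffolds in Rh30, at -2.47, and lies at -0.50 in Rh41, not past the threshold. VGLL2 is below 0 in both lines. TAOK3 and VGLL1 in both lines, NT5E and NUAK2 in Rh41 and DCHS1 and FOXF2 in Rh30 were below the negative-control level on every array of these groups.

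Further YAP targets went both ways in both lines. In Rh41 4 of 13 rose and 2 fell (median 0.06 log2), beside 10.9% and 8.80% of all genes, with rises of MYOF (1.89 ± 0.17 log2), a membrane repair protein, IGFBP3 (1.11 ± 0.15), a binding protein of insulin-like growth factors, and CRIM1 (1.06 ± 0.10). CCDC80 fell by 0.65 log2 (SE 0.15). In Rh30 6 of 13 rose and 3 fell (median 0.32 log2), beside 19.9% and 16.5% of all genes, with rises of CRIM1 (1.11 ± 0.10 log2) and MYOF (1.11 ± 0.17). RBMS3, an RNA-binding protein, fell by 1.73 log2 (SE 0.12) and NT5E, the ectonucleotidase CD73, by 1.22 log2 (SE 0.16).

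Differences between the lines passed for several of these genes. STK3 differed by 1.97 ± 0.28 log2 (Rh41 minus Rh30, adjusted p = 6.62e-05), WWC2 by 1.09 ± 0.13 and FRMD6 by 0.71 ± 0.13. In all 6 of 20 kinases and scaffolds had positive differences and 0 negative, beside 10.5% and 9.45% of all genes, but one of the 6, TAOK3, was below the negative-control level on every drug and vehicle array of both lines. WWTR1 differed by 0.57 ± 0.16 log2 (adjusted p = 0.0147), VGLL3 by 0.45 ± 0.13 and VGLL2 by 0.41 ± 0.14, and TEAD2 by -0.37 ± 0.11. Of the further targets 5 of 13 had positive differences and 2 negative, among them RBMS3 (1.74 ± 0.16) and CCDC80 (-1.73 ± 0.21). NT5E and IGFBP3 are counted among the 5, but NT5E was below the negative-control level on all 6 Rh41 arrays, and IGFBP3 was above it on 1 of 3 DMSO and 0 of 3 QC6352 arrays of Rh30, so no response could be measured there.

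With the KDM4B hairpin the further targets rose in 6 of 13 and fell in 2 (median 0.43 log2, beside 0.03 over all genes), against 5.26% and 6.31% of all genes. CCDC80 rose by 1.31 ± 0.19 log2, NT5E by 1.21 ± 0.19 and F3, the gene of tissue factor, by 1.02 ± 0.16, and RBMS3 fell by 1.07 log2 (SE 0.14). NT5E thus rose in shKDM4B cells and fell under QC6352 in the same line. Of the 20 kinases and scaffolds 2 rose and 3 fell, with FRMD6 at 0.86 ± 0.11 log2, WWC2 at -0.58 ± 0.11, SAV1 at -0.55 ± 0.15 and LIMD1 at -0.52 ± 0.13. Of the 8 coactivators and cofactors VGLL2 (-0.52 ± 0.12) and WWTR1 (-0.43 ± 0.14, adjusted p = 0.0492) fell. With the KDM4C siRNA VGLL2 alone of these 3 lists passed, with a change of -0.63 ± 0.12 log2 (adjusted p = 0.0204).

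Between the lines in DMSO 8 of the 20 kinases and scaffolds were higher in Rh41 and 4 lower (median 0.18 log2, beside 0.19 over all genes), near the 40.7% and 16.8% of all genes. Where every array of one line was below the negative-control level, the fold is a bound, taken against that level. DCHS1, an atypical cadherin gene, was at least 6.30-fold higher in Rh41 (means 7.68 log2 in Rh41 and 4.40 in Rh30, below that level in Rh30, adjusted p = 3.23e-12). FAT4, another such gene, had 6.77 log2 in Rh41 and 4.91 in Rh30, where 1 of 3 arrays was above that level. Also higher were MOB1B (1.82 ± 0.13 log2) and MAP4K4 (1.22 ± 0.11). TEAD4 was lower in Rh41 (-1.52 ± 0.12 log2), and VGLL2 (1.46 ± 0.10), TEAD2 (0.73 ± 0.08) and VGLL3 (0.73 ± 0.09) were higher, with 5 of 8 cofactors higher and 1 lower. Of the further targets 5 of 13 were higher and 5 lower. FOXF2 was at least 3.20-fold higher in Rh41 (means 6.70 log2 in Rh41 and 4.42 in Rh30, adjusted p = 3.87e-11). NT5E was at least 6.17-fold lower (means 4.04 log2 in Rh41 and 7.91 in Rh30, adjusted p = 1.75e-13) and NUAK2 at least 2.69-fold lower (means 4.73 log2 in Rh41 and 6.71 in Rh30, adjusted p = 1.65e-08). IGFBP3 had 8.83 log2 in Rh41 and 4.92 in Rh30, where 1 of 3 arrays was above the negative-control level (adjusted p = 8.40e-14).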

How the data were processed

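Per the labels, 125 ng of total RNA per sample went onto Clariom S human arrays. The authors deposited log2 signals per probe set, which run from 2.22 to 14.22. GCOS is the tool in the submitters' processing notes. How signals were summarized and normalized is not stated there, and no further scaling was applied. Of 24351 probe sets 17709 carried 1 gene symbol, and the one with the highest mean stood for each gene, leaving 17687 genes.

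The test was limma 3.58.1 under R 4.3.3 (lmFit, eBayes without trend) in 1 fit of 8 group means over 20 arrays with 12 residual degrees of freedom. Benjamini-Hochberg adjustment ran over all genes, with a threshold of 0.05. The p values reflect the spread among arrays labelled as biological replicates. Groups of 2 or 3 arrays limit the precision. The fit was tested on simulated data. The listed genes, further lists, marker lists and tests were chosen with earlier results of these data known. In the further lists, up to 4 genes per comparison are named, those with the largest change past the threshold. Lists of SRF and TGF-beta targets were counted and named likewise, for QC6352 in each line and for the KDM4B hairpin. Alternatives were other normalizations, a filter on dim genes, other fits, the replicate number as a block, groups by sample name and leaving out arrays. Promoters are from RefSeq (GRCh38.p14).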

Additional observations from a re-analysis of the deposited data

Results flagged for a closer look

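For 6 genes the response to QC6352 differed between the lines in a test of the difference itself, the change in Rh41 minus the change in Rh30 (limma, adjusted over 17687 genes). The difference was 3.78 log2 for ANKRD1, which rose in Rh41 and fell in Rh30. It was 1.03 log2 for THBS1 and 1.03 log2 for AXL, which rose in both lines. TEAD1 (0.96 log2) and YAP1 (0.43 log2) fell in Rh30 and did not pass in Rh41. AJUBA (0.41 log2) rose in Rh41 and did not pass in Rh30.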

How the results depend on the processing

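The Rh30 drug and siRNA results rest on the titles, as 10 arrays have a different group by sample name. By sample name 725 genes passed for the KDM4B hairpin, against 2047 by title, 0 for the KDM4C siRNA (2203 at an unadjusted p under 0.05), 89 for QC6352 in Rh30, against 6427, 1537 in Rh41, against 3479, and 762 for the difference between lines, against 3534. Of the 9 genes 1, 0, 0, 5 and 4 passed in these comparisons. Signs turned by sample name for the siRNA in ANKRD1 (-0.53), CCN2 (0.71), AJUBA (-0.14), YAP1 (-0.26) and TEAD1 (-0.29), for QC6352 in Rh30 in CCN1 (-0.024), AJUBA (0.48), AXL (-0.053), YAP1 (0.15) and TEAD1 (0.081), and for the difference in CCN2 (0.63), AJUBA (-0.14), LATS2 (0.39), YAP1 (-0.20) and TEAD1 (-0.012). A further fold threshold of 1.5 left 1111 genes for the hairpin, 3337 for QC6352 in Rh30, 1386 in Rh41 and 6060 for DMSO, and of the 9 genes 1 for the hairpin and 5 for QC6352 in Rh30. For the hairpin a fit of the compared arrays alone gave 826 genes and 1 of the 9 genes, and eBayes with trend and robust 4 of 9. For the siRNA, 81 genes passed, but 341 without the dimmest 40% of genes and 438 with trend and robust. Each of these 2 fits had 1 of the 9 genes (ANKRD1), and 0 genes passed with the compared arrays alone.

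Leaving out each array in turn gave 1039 to 1557 genes and 1 to 2 of the 9 for the hairpin, and 8 to 1789 genes and 0 to 2 of the 9 for the siRNA. The low hairpin counts were without shControl replicate 1 (1179), shKDM4B replicate 1 (1039) and shKDM4B replicate 2 (1095). The siRNA count was 14 without siControl replicate 1, 8 without siControl replicate 2, 1789 without siKDM4C replicate 1, which leaves the array whose title reads shRNA, and 9 without siKDM4C replicate 2. Small siRNA changes turned sign: CCN2 (range -0.088 to 0.065) and TEAD1 (-0.087 to 0.35) without siKDM4C replicate 2, and THBS1 (-0.058 to 0.19) without siControl replicate 1 or siKDM4C replicate 1. With quantile normalization the sign turned for AJUBA under the siRNA (-0.0029) and in DMSO (-0.055) and for TEAD1 in DMSO (-0.021), and with arrays centred on their median for AJUBA in DMSO (-0.051). Centring also ended the call of YAP1 between lines (adjusted p = 0.0696). Where no value above shows it, the cause was not tested.

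Replicate numbers were not shown to pair the arrays: deviations of same-numbered arrays correlated at 0.0858 for the hairpin, -0.215 for the siRNA, 0.0615 to 0.260 for QC6352 in Rh30 and -0.190 to -0.0593 in Rh41. With the replicate block 2019, 76, 6438, 3451, 3504 and 10186 genes passed for the hairpin, the siRNA, QC6352 in Rh30, QC6352 in Rh41, their difference and DMSO, and 3, 0, 8, 7, 7 and 8 of the 9 genes. The block added the call of CCN2 for the hairpin (adjusted p = 0.0437) and for the difference (adjusted p = 0.0377) and changed no other call among the 9 genes. Crossed numbers for the siRNA, added after the data were seen, gave 84 genes and 0 of 9.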

Other observations

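Targets of serum response factor (SRF) and its coactivators, which share cytoskeletal cues with YAP, were counted beside the YAP targets. Of 11 measured, 4 rose and 1 fell in Rh41 under QC6352, 3 rose and 3 fell in Rh30 under QC6352, and 2 rose and 1 fell with the KDM4B hairpin. Of all genes 10.9% rose and 8.80% fell in Rh41, 19.9% and 16.5% in Rh30 and 5.26% and 6.31% with the hairpin. CNN1, the smooth muscle protein calponin, rose in all 3 comparisons, by 1.06 ± 0.13 log2 in Rh41 under QC6352, 1.14 ± 0.13 in Rh30 under QC6352 and 1.54 ± 0.16 in shKDM4B cells. FHL2, a LIM-domain cofactor, also rose in each, by 0.52 ± 0.16, 0.97 ± 0.16 and 0.78 ± 0.19 log2 in the same order. The tropomyosin gene TPM1 rose by 1.47 ± 0.10 log2 in Rh41 under QC6352 and fell by 1.02 log2 (SE 0.12) in shKDM4B cells. TAGLN also rose in Rh41, with means of 8.36 log2 under QC6352 and 7.50 in DMSO. In Rh30 under QC6352 VCL, the gene of vinculin, fell by 1.10 log2 (SE 0.09) and TPM2 by 0.94 log2 (SE 0.09).

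Of 7 TGF-beta targets measured, 1 rose and 2 fell in Rh41 under QC6352, 2 rose and 3 fell in Rh30 under QC6352, and 1 rose and 1 fell with the KDM4B hairpin, beside the same shares of all genes. TGFBI, a matrix protein, rose by 1.26 ± 0.13 log2 in Rh30 under QC6352 and by 0.80 ± 0.16 log2 in shKDM4B cells. In Rh41 it was below the negative-control level on every array of both groups. SMAD7, an inhibitor of the pathway, rose by 0.53 ± 0.11 log2 in Rh41 and by 0.49 ± 0.11 log2 in Rh30 under QC6352. SKI, a repressor of SMAD signalling, fell by 0.84 log2 (SE 0.15) in Rh41 and by 0.63 log2 (SE 0.15) in Rh30. LTBP2 fell in Rh41, with means of 6.15 log2 under QC6352 and 6.70 in DMSO. PMEPA1 fell in Rh30, with 8.68 log2 under QC6352 and 9.25 in DMSO. With the hairpin SKIL fell, with 8.14 log2 in shKDM4B cells and 8.83 in shControl cells.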
